A study of Homo sapiens with 12 samples.

Results

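The long arm of chromosome 18 (18q) was examined in HMC-1 cells through 60 genes that lie between RBBP8 and PARD6G, among the 58381 genes of the deposited table. The 60 genes were chosen by their position and by earlier values of these same libraries, in which 18q genes stood out in 1 edited clone, HMC-1.3 clone 2. All 60 were found by symbol, and their Gencode 44 positions on GRCh38 all fall on chromosome 18, from chr18:22798261-23026488 (RBBP8) to chr18:80157232-80247514 (PARD6G), a span of 57.4 Mb. HMC-1 is an established human mast cell leukaemia line. The 12 libraries of polyadenylated RNA came from 4 lines with 3 libraries each. HMC-1.1 cells carry the V560G variant of the receptor tyrosine kinase KIT, and HMC-1.2 cells carry V560G together with D816V. HMC-1.3 clones 1 and 2 were derived from HMC-1.2 by CRISPR/Cas9 repair of V560G, puromycin selection and limiting dilution, and carry D816V as their single KIT variant. RNA was taken after 72 h of culture. Each HMC-1.3 group is 1 clone and the 3 libraries of a group are 3 wells of 1 line, so that p-values measure the spread between wells and not between independently edited cells.

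Chromosome arm 18q carries genes of many unrelated pathways. Among them are SMAD2, SMAD4 and SMAD7, which pass on and restrain the signal of transforming growth factor-β, and MALT1, a protease that links antigen and Fc receptors to NF-κB in lymphocytes and mast cells. Losses and gains of this arm are known from several cancers, and BCL2, whose protein protects cells from apoptosis, also lies on it.

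To show what the start sites of these genes look like, the 250 bases before the RefSeq start of the members with the largest and the lowest mean shift in clone 2, MALT1 and PSTPIP2, are printed in the direction of transcription (GRCh38.p14). Capitals mark matches on either strand to any of 3 motifs, which are the TATA box core TATAAA, the CAAT box core written as CCAAT, and the GC box core given by GGGCGG. Neighbouring matches that overlap or touch run together.
MALT1, chr18:58671215-58671464, plus strand: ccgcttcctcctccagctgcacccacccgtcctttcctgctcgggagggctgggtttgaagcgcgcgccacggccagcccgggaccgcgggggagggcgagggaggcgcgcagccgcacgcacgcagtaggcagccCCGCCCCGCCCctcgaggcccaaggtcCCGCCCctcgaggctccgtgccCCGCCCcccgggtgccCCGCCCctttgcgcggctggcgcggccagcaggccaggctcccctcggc
PSTPIP2, chr18:46072261-46072510, minus strand: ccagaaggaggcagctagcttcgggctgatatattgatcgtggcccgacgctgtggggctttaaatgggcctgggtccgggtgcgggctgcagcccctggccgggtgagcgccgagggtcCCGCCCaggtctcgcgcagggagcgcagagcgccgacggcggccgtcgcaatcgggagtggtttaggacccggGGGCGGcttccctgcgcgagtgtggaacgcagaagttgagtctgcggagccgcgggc

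The MALT1 window held 5 matches to GGGCGG and 30 CpG dinucleotides and the PSTPIP2 window 2 matches and 28 CpG, and neither contained TATAAA or CCAAT. A promoter was found for 52 of the 60 members, of which 69.2% contained GGGCGG, 38.5% CCAAT and 3.85% TATAAA, with a median of 21 CpG. Of 10067 tested genes with a promoter in the table, 67% held GGGCGG, 35.1% CCAAT and 5% TATAAA, also with a median of 21 CpG, and of all 27305 genes with a RefSeq promoter 42.3%, 33% and 11.1%, respectively. By these letters the members' windows were close to those of the other genes tested.

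Total expected counts ran from 29225900 to 43181402 per library. Of 10 mast cell markers, 8 reached at least 1 FPKM (fragments scaled to transcript length and library size) in every library, including KIT at 346 to 469 FPKM, whereas MS4A2 stayed at or below 0.45 and FCER1A at or below 1.27 FPKM. A point variant is not checked by the level of KIT. One library stood apart: HMC-1.3 clone 2 replicate 3 held 459 counts of KRT8 and 429 of KRT18, keratins of epithelial cells, against at most 13 and 4 in the other 11 libraries, while EPCAM stayed at or below 0.17 FPKM in all 12. The summed FPKM of these 3 epithelial markers ran from 0.11 to 14.6 within clone 2 and from 0.13 to 0.86 in the other lines. The lists for T cells, B cells, monocytes, fibroblasts and erythroid cells each summed to at most 6.07 FPKM in any library. Without clone 2 replicate 3, the median shift of the members described next was 0.56, 0.62 and 0.54 against HMC-1.1, HMC-1.2 and clone 1, close to the values with it.

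In HMC-1.3 clone 2, genes of 18q exceeded the other 3 lines by a similar factor along the whole arm. Of the 60 members, 54 passed the filter on low counts. Their median log2 fold change in clone 2 was 0.56 against HMC-1.1, 0.61 against HMC-1.2 and 0.55 against clone 1, which are ratios of 1.47, 1.53 and 1.46. Over all 15944 genes tested, the medians were -0.01, 0.00 and -0.01. The summed level of the 60 members was 5172 ± 40.6 CPM (counts scaled to library size) in clone 2 (SD, n = 3), 3544 ± 39.4 for HMC-1.1, 3426 ± 42.6 in HMC-1.2 and 3600 ± 50.2 in clone 1. RNA was taken from whole cultures, so a change in every cell cannot be told apart from a larger change in some of them. Because these comparisons served to choose the members, their values and counts are a description and test nothing about the members.

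**Figure D1:**
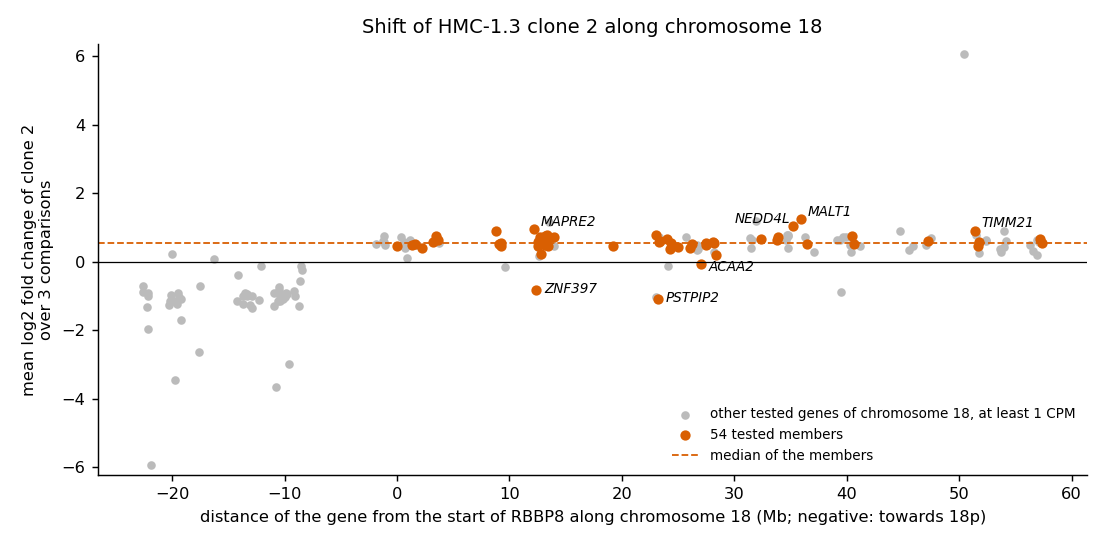
Mean log2 fold change of HMC-1.3 clone 2 over its comparisons with HMC-1.1, HMC-1.2 and clone 1 (vertical axis) against the distance of each gene from the start of RBBP8 (horizontal axis, Mb), for the 54 tested members (orange) and the other tested genes of chromosome 18 with at least 1 CPM (grey). Most members lie in a band around their median of 0.56 (dashed line) from RBBP8 to PARD6G. MALT1 (1.24) and NEDD4L (1.04) stand highest among the members, while ACAA2, ZNF397 and PSTPIP2 lie below 0. Most genes of 18p also lie below 0.

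The choice of members fixed how many of them passed the threshold set in edgeR's quasi-likelihood test for all genes, an adjusted p under 0.05, so the following counts carry no support. Against HMC-1.1, 51 members lay past it on the higher side of clone 2 and 3 on the lower side, where 18.5% of all genes tested were called higher and 17.5% lower. Against HMC-1.2 the counts were 52 and 2, beside 24.7% and 23.8% of all genes. Against clone 1 they were 49 and 3, beside 24.7% and 25.5%. In 49 of the 54 members all 3 libraries of clone 2 lay above all 9 libraries of the other lines, an order that 8.52% of all genes showed. In ZNF397 and PSTPIP2 all 3 lay below the other 9, as in 7.87% of all genes. In OSBPL1A, ZNF521 and ACAA2 the clone 2 libraries fell among the others. These 5 genes, in which clone 2 did not lie above all other lines, are called escapees here. Without clone 2 replicate 3, the number of members above all others was again 49, an order that 10.7% of all genes then showed.

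The size of the shift was narrow. The ratio of clone 2, averaged on the log2 scale over its 3 comparisons, had a median of 1.48 with quartiles of 1.38 and 1.59. It lay between 1.2 and 1.8 in 44 of the 54 members and in 10.3% of all genes tested, while 5 members lay above this range and 5 below. Those above were MALT1 (2.36), NEDD4L (2.06), MAPRE2 (1.94), B4GALT6 (1.86) and TIMM21 (1.86). Those below were PSTPIP2 (0.474), ZNF397 (0.568), ACAA2 (0.955), MEX3C (1.15) and GALNT1 (1.18). The 3 libraries of clone 2 gave like values, with a median difference over the members from the HMC-1.1 mean of 0.54, 0.54 and 0.57 on the log2 scale. By comparison, the median SD between libraries of 1 line was 0.05 for a member's log2 CPM.

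**Figure D2:**
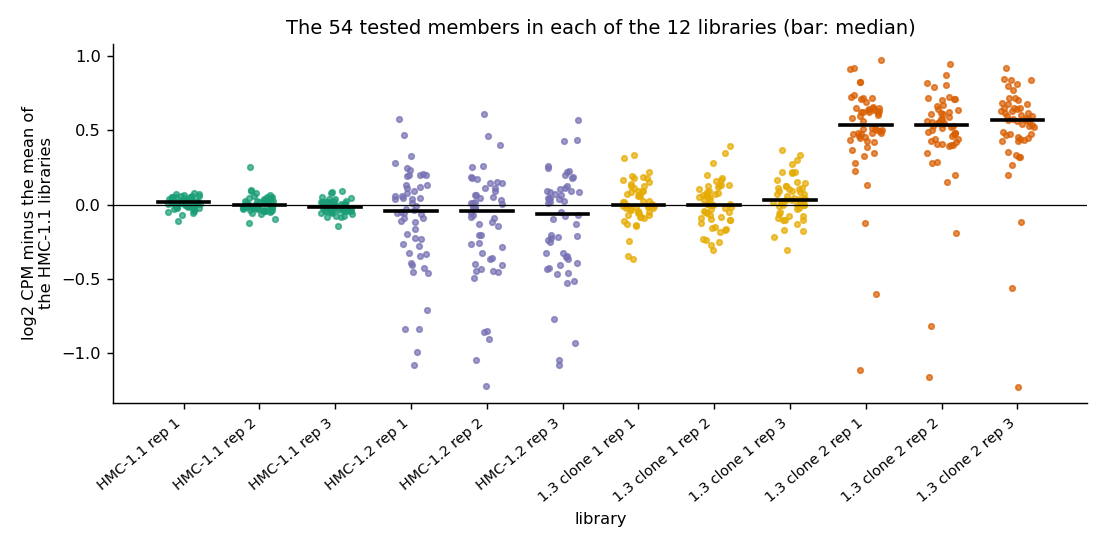
Log2 CPM of each tested member minus its mean in HMC-1.1 (vertical axis) in the 12 libraries (horizontal axis, coloured by line), with the median of the 54 members as a bar. The 3 libraries of HMC-1.3 clone 2 have medians of 0.54, 0.54 and 0.57, whereas the points of HMC-1.2 scatter widely on both sides of 0.

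Position along the arm, level and gene length went only weakly with the size of the shift. In windows of 10 Mb from the start of RBBP8, the median mean shift was 0.53, 0.57, 0.54, 0.7, 0.6 and 0.58, over 11, 13, 16, 6, 3 and 5 members. Across the 54 members, which share their libraries, Pearson's r of the mean shift was 0.12 with the distance from RBBP8, 0.21 with log2 mean CPM and 0.14 with log2 gene length (Spearman's rho 0.14, -0.08 and 0.18).

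The 3 SMAD genes were all higher in clone 2. SMAD2 (chr18:47808957-47931146) encodes a SMAD that the receptors phosphorylate directly. Its level was 120, 117 and 118 CPM in the HMC-1.1 libraries, 122, 118 and 121 in HMC-1.2, 123, 123 and 131 in clone 1 and 159, 165 and 164 in clone 2. Clone 2 stood apart while the other 9 libraries stayed close together, with log2 fold changes of 0.46 ± 0.03, 0.43 ± 0.03 and 0.37 ± 0.03 (SE) against HMC-1.1, HMC-1.2 and clone 1. SMAD4 (chr18:51028528-51085045) binds the receptor SMADs and carries them to DNA. It was at 59.7, 66.3 and 62.3 CPM in HMC-1.1, 45.8, 47.5 and 43.8 in HMC-1.2, 62.3, 62 and 63.4 in clone 1 and 82.1, 82.9 and 84.6 in clone 2. HMC-1.2 was thus lowest and clone 2 highest, and the shift of clone 2 was 0.41 ± 0.04, 0.87 ± 0.04 and 0.41 ± 0.04. SMAD7 (chr18:48919853-48950965), which restrains the same receptors, was at 18.4, 18.4 and 18.7 CPM in HMC-1.1, 22.5, 19.8 and 24.9 in HMC-1.2, 23.4, 24.4 and 23.9 in clone 1 and 27.3, 29 and 28 in clone 2. It had the smallest mean shift of the 3, with 0.60 ± 0.06, 0.33 ± 0.06 and 0.24 ± 0.06.

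All 5 ubiquitin and SUMO ligases were above the other 9 libraries in clone 2, with a median mean shift of 0.54. NEDD4L (chr18:58044226-58401540), a HECT ubiquitin ligase that removes ion channels from the cell surface, moved most. Its libraries held 29.3, 29.8 and 28.5 CPM in HMC-1.1, 16.3, 16 and 17.1 in HMC-1.2, 28.9, 26.1 and 29.2 in clone 1 and 48, 47.8 and 51.3 in clone 2. As in SMAD4, HMC-1.2 was lowest, so that the log2 fold change of clone 2 was 1.58 ± 0.05 against HMC-1.2 but 0.75 ± 0.05 against HMC-1.1 and 0.81 ± 0.05 against clone 1. MEX3C (chr18:51174550-51218333), an RNA-binding ubiquitin ligase, moved least and was at 48.4, 46.3 and 46.7 CPM in HMC-1.1, 56, 56.5 and 56.5 in HMC-1.2, 54.7, 53.4 and 54.8 in clone 1 and 59.1, 62.6 and 59.5 in clone 2. The groups did not overlap, but the shift was only 0.36 ± 0.04, 0.10 ± 0.04 and 0.15 ± 0.04. Between these extremes lay the RIG-I ligase RNF125 with a mean ratio of 1.37, RNF138, a ligase of DNA repair, with 1.46 and the SUMO ligase PIAS2 with 1.59.

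Of 15 genes of transcription and chromatin, 14 were tested, 12 of which had clone 2 above all other libraries. TAF4B (chr18:26226445-26391685), a subunit of the general factor TFIID, had the largest mean shift. It was at 31.4, 29.9 and 29.3 CPM in HMC-1.1, 23.9, 24.8 and 22.4 in HMC-1.2, 27.9, 28.2 and 29.1 in clone 1 and 46.9, 44.2 and 47.5 in clone 2. TCF4 (chr18:55222185-55664787), a helix-loop-helix factor of lymphoid and dendritic cells, showed an even pattern with 33.7, 36.3 and 32.4 CPM in HMC-1.1, 32.6, 32.7 and 35 in HMC-1.2, 33.6, 30.4 and 35.2 in clone 1 and 53.3, 52.1 and 53.5 in clone 2. The other 3 lines overlapped in TCF4, and clone 2 was higher by 0.63 ± 0.05, 0.67 ± 0.05 and 0.68 ± 0.05. Mean ratios of 1.39 to 1.66 were found for the BAF subunit SS18 (1.49), the AP-2 repressor KCTD1 (1.57), the RNA polymerase II-binding RPRD1A (1.66), the INO80 subunit INO80C (1.65), the Elongator scaffold ELP2 (1.53), the methyl-CpG reader MBD1 (1.41) and the zinc finger genes ZSCAN30 (1.49), ZNF24 (1.39) and ZNF407 (1.49). CXXC1, which recruits a histone methyltransferase to unmethylated CpG islands, had a mean ratio of 1.46 but an uneven pattern. Its mean level was 64.3 ± 1.95 CPM in HMC-1.1, 60.4 ± 1.67 in clone 1, 96.8 ± 1.53 in HMC-1.2 and 106 ± 2.24 in clone 2 (SD, n = 3), so that clone 2 exceeded HMC-1.2 by only 0.12 ± 0.03 on the log2 scale.

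Both remaining tested genes of this group were escapees. ZNF397 (chr18:35241030-35267133), a zinc finger gene, was the one with the lower level in clone 2. It was at 6.16, 7.95 and 6.01 CPM in HMC-1.1, 7.59, 7.53 and 7.76 in HMC-1.2, 7.53, 8.07 and 8.18 in clone 1 and 4.35, 3.74 and 4.49 in clone 2. All clone 2 libraries lay below the other 9, with log2 fold changes of -0.67 ± 0.11, -0.86 ± 0.11 and -0.92 ± 0.11. ZNF397 overlaps the member ZSCAN30 on the opposite strand over 16.1 kb, and ZSCAN30 was higher in clone 2. The kit marks strand, but how the counting used strand is not given in the sources used here, so reads of the overlap may be split between both genes. ZNF521 (chr18:25061924-25352190), a zinc finger cofactor of blood stem and progenitor cells, was at 118, 120 and 112 CPM in HMC-1.1, 65.1, 62.2 and 61.1 in HMC-1.2, 131, 128 and 136 in clone 1 and 128, 130 and 134 in clone 2. The libraries of both clones overlapped and HMC-1.2 was far lower. Clone 2 therefore differed by 1.05 ± 0.04 from HMC-1.2, by 0.16 ± 0.04 from HMC-1.1 and by -0.01 ± 0.04 from clone 1.

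In the secretory pathway, endosomes and autophagy, 9 of 10 members were tested and 8 had clone 2 above all others. EPG5 (chr18:45800581-45967329), which tethers autophagosomes to lysosomes, moved most, with 53.5, 56.7 and 52.7 CPM in HMC-1.1, 39.4, 38.4 and 42.7 in HMC-1.2, 45.8, 45.6 and 55.5 in clone 1 and 75.7, 81 and 85.2 in clone 2. PIK3C3 (chr18:41955234-42087830), the lipid kinase that starts autophagosome formation, moved least on average. It was at 46.5, 47.2 and 45.7 CPM in HMC-1.1, 43.6, 43.9 and 44.2 in HMC-1.2, 43.8, 43.1 and 43.2 in clone 1 and 60.1, 61.5 and 62.4 in clone 2. The PIK3C3 values of the other lines were nearly level, and clone 2 was higher by 0.40 ± 0.03, 0.48 ± 0.03 and 0.50 ± 0.03. Mean ratios were 1.43 for the vesicle tether TRAPPC8, 1.48 for IER3IP1 of the endoplasmic reticulum, 1.44 for the Golgi protein DYM, 1.66 for WDR7, a partner of the vesicular proton pump, 1.42 for the cargo receptor LMAN1 and 1.44 for the ESCRT ATPase VPS4B. The escapee OSBPL1A (chr18:24162045-24397880) encodes an oxysterol-binding protein of late endosomes. It was at 51.1, 50 and 46.4 CPM in HMC-1.1, 24.6, 23.7 and 23.8 in HMC-1.2, 61.2, 62.4 and 62 in clone 1 and 59.6, 56.3 and 59 in clone 2. Clone 2 lay just below clone 1 in OSBPL1A, above HMC-1.1 and far above HMC-1.2, with log2 fold changes of -0.09 ± 0.04, 0.25 ± 0.04 and 1.28 ± 0.04 in this order, the first of which ran from -0.10 to 0.03 over the alternative analyses.

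Of the 10 enzymes and transporters, 9 had clone 2 above all other libraries. TIMM21 (chr18:74148523-74160531), which serves protein import into mitochondria, led with 34.1, 34.1 and 37.4 CPM in HMC-1.1, 40.4, 42 and 41.8 in HMC-1.2, 27.2, 29.1 and 28.4 in clone 1 and 69.1, 60.9 and 62.9 in clone 2. The shift was largest against clone 1, where TIMM21 was lowest, at 1.19 ± 0.05, and was 0.87 ± 0.05 and 0.64 ± 0.05 against HMC-1.1 and HMC-1.2. B4GALT6, a lactosylceramide synthase, followed with a mean ratio of 1.86. Next to it in function, KDSR of ceramide synthesis had 1.68, the zinc importer SLC39A6 1.7, the mitochondrial malic enzyme ME2 1.51, the molybdenum cofactor sulfurase MOCOS 1.37, the dipeptidase CNDP2 1.36 and the phosphatase-like HDHD2 1.29. GALNT1, which starts mucin-type O-glycans, had a mean level of 94.4 ± 1.91 CPM in HMC-1.1, 93.6 ± 1.08 in clone 1, 104 ± 2.53 in HMC-1.2 and 115 ± 3.67 in clone 2 (SD, n = 3), a small shift with no overlap. The escapee ACAA2 (chr18:49782164-49813953), a thiolase of mitochondrial fatty acid oxidation, was at 46.3, 46.5 and 47.3 CPM in HMC-1.1, 40.7, 36.3 and 35.2 in HMC-1.2, 49.7, 50.8 and 47.9 in clone 1 and 42.8, 40.9 and 43.1 in clone 2. Clone 2 was between HMC-1.2 and the other lines, at 0.17 ± 0.05 from HMC-1.2, -0.14 ± 0.05 from HMC-1.1 and -0.23 ± 0.05 from clone 1. A further annotated protein-coding gene overlaps ACAA2 on the same strand over 18.2 kb, and reads of the overlap are uncertain between the pair.

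Junction and cytoskeleton genes held both the lowest member and one of the highest. MAPRE2 (chr18:34976928-35143470) binds the growing ends of microtubules. It was at 117, 116 and 119 CPM in HMC-1.1, 124, 116 and 120 in HMC-1.2, 112, 108 and 110 in clone 1 and 223, 227 and 223 in clone 2. Clone 2 was close to 1 log2 unit higher in each comparison, with 0.93 ± 0.03, 0.90 ± 0.03 and 1.03 ± 0.03. PSTPIP2 (chr18:45983536-46072272), a membrane-bending F-BAR protein whose loss causes inflammation of bone in mice, went the other way. It was at 43.4, 41.5 and 41 CPM in HMC-1.1, 34.8, 33.4 and 31.9 in HMC-1.2, 41.5, 43.6 and 44.1 in clone 1 and 19.3, 18.7 and 17.9 in clone 2. All clone 2 libraries were lowest in PSTPIP2, with log2 fold changes of -1.17 ± 0.05, -0.84 ± 0.05 and -1.21 ± 0.05, although EPG5 and HAUS1, the members on either side of it, were higher in clone 2. TPGS2, a subunit of the tubulin polyglutamylase, had a mean ratio of 1.64 and the polarity gene PARD6G, the last member of the arm, 1.47.

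**Figure D3:**
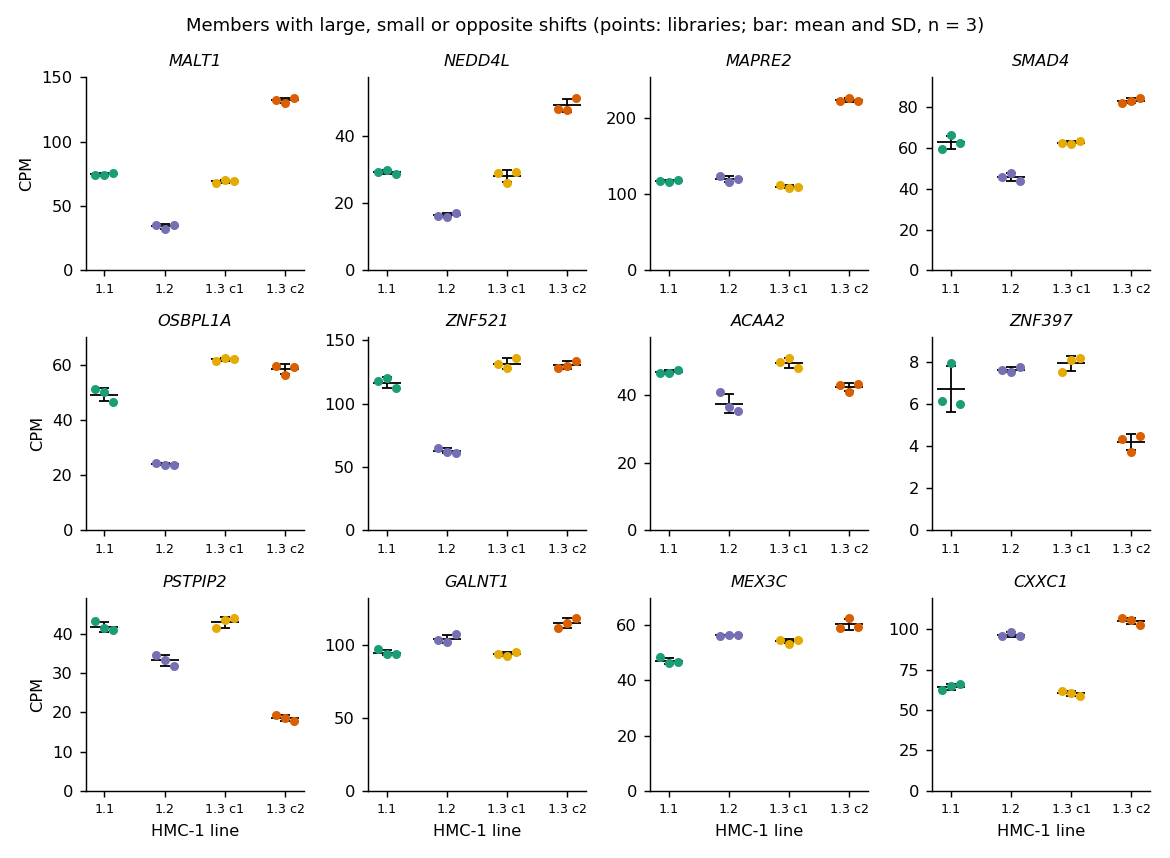
CPM (vertical axes, from 0) of 12 members in HMC-1.1 (1.1), HMC-1.2 (1.2) and HMC-1.3 clones 1 (1.3 c1) and 2 (1.3 c2), with each library as a point and the mean and SD over 3 libraries as a bar. Clone 2 is highest in MALT1, NEDD4L, MAPRE2, SMAD4, GALNT1, MEX3C and CXXC1, level with clone 1 in ZNF521, and lowest in ZNF397 and PSTPIP2.

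The 3 genes of cell division and DNA repair had clone 2 above all others. RTTN (chr18:70003031-70205726), needed for centriole assembly, was at 28.4, 26.8 and 27.2 CPM in HMC-1.1, 26.3, 24.8 and 28.3 in HMC-1.2, 21.6, 23.3 and 24.3 in clone 1 and 37.4, 38.4 and 40.7 in clone 2. RBBP8, a DNA end resection factor also called CtIP, was at 93.2, 95.2 and 88.1 CPM in HMC-1.1, 82.3, 76.5 and 77.1 in HMC-1.2, 104, 101 and 99.1 in clone 1 and 125, 123 and 126 in clone 2. Their mean ratios were 1.52 and 1.38, and that of the spindle gene HAUS1 was 1.49.

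Among the 6 members with other roles, MALT1 (chr18:58671465-58754477) had the largest mean shift of all members. It was at 74.4, 73.7 and 75.5 CPM in HMC-1.1, 35.2, 31.9 and 35.1 in HMC-1.2, 67.8, 69.8 and 69.4 in clone 1 and 132, 130 and 134 in clone 2. The groups HMC-1.2, clone 1, HMC-1.1 and clone 2 followed each other without overlap in MALT1, and clone 2 was higher by 1.96 ± 0.04 than HMC-1.2 but by 0.83 ± 0.04 and 0.94 ± 0.04 than HMC-1.1 and clone 1. C18orf21, which moved least in this group, was at 12.8, 12.7 and 12.2 CPM in HMC-1.1, 12.1, 13.9 and 11.5 in HMC-1.2, 14.3, 14.4 and 12.7 in clone 1 and 19.6, 17.8 and 17.5 in clone 2. Mean ratios were 1.45 for IMPACT, which restrains the GCN2 stress kinase, 1.54 for C18orf25, 1.56 for the thioredoxin-like TXNL1 and 1.59 for the spliceosome gene TXNL4A.

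The 6 members that did not pass the filter on low counts were near 0 in most libraries. SETBP1 had 0 counts in all 12. DSG2, a desmosomal cadherin, had 13 counts in clone 2 replicate 3, the library with the keratins, and 0 in the other 11. DSC2, its partner cadherin, had 14, 6 and 13 counts in HMC-1.2, 0 in each of HMC-1.1, 0, 1 and 1 in clone 1 and 1, 1 and 9 in clone 2. The sperm protein CABYR had 11, 13 and 11 counts in clone 2 and at most 6 in any other library. The dystrobrevin DTNA reached at most 3 counts and the motor MYO5B at most 5. No fold change is given for these genes.

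Without clone 2, the same members went in both directions, with 31 of the 54 positive and 23 negative in each of the 3 comparisons. In each, more members were called higher than lower, whereas the 2 shares of all genes lay close together. These comparisons did not serve to choose the members, but they use the libraries of the other 3 lines to which clone 2 had been compared. HMC-1.3 clone 1 against HMC-1.1 gave a median log2 fold change of 0.02 over the 54 members, with 11 called higher and 6 lower (edgeR's quasi-likelihood test, adjusted p under 0.05), where 8.87% and 9.83% of all genes were called. No member changed by more than 1.5-fold in this comparison, against 0.671% of all genes higher and 0.339% lower. These counts are small and moved with the libraries used: leaving out 1 library at a time gave 4 to 10 higher and 2 to 6 lower.

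Clone 1 against HMC-1.2 gave a median of 0.10, with 25 members called higher and 15 lower beside 30.1% and 29.3% of all genes. With a fold over 1.5, 4 members rose and 1 fell, beside 11.8% and 8.18% of all genes. OSBPL1A rose by 1.36 ± 0.04 (adjusted p = 7.3e-14), ZNF521 by 1.07 ± 0.04 (adjusted p = 3.2e-13) and MALT1 by 1.02 ± 0.04 (adjusted p = 8e-13) on the log2 scale. NEDD4L, the last of the 4, which was named after its value was seen, rose by 0.77 ± 0.05 (adjusted p = 2.2e-09), and CXXC1 was lower at -0.68 ± 0.04 (adjusted p = 3.8e-11). In each of these 5 genes all clone 1 libraries lay on one side of all HMC-1.2 libraries.

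HMC-1.1 against HMC-1.2 gave a median of 0.04, with 22 members called higher and 11 lower beside 27.2% and 26.5% of all genes. With a fold over 1.5, 5 members were higher in HMC-1.1 and 1 was lower, beside 10.1% and 7.52% of all genes. MALT1 was higher by 1.13 ± 0.04 (adjusted p = 1.9e-13), OSBPL1A by 1.03 ± 0.04 (adjusted p = 4e-12) and ZNF521 by 0.89 ± 0.04 (adjusted p = 4.1e-12), while CXXC1 was lower at -0.59 ± 0.04 (adjusted p = 2.9e-10). The other two that were higher, named after their values were seen, were NEDD4L with 0.83 ± 0.05 (adjusted p = 9.7e-10) and B4GALT6 with 0.70 ± 0.09 (adjusted p = 2.6e-06). The 2 comparisons with HMC-1.2 share its 3 libraries. SMAD4 was also higher than in HMC-1.2 in both, by 0.45 ± 0.04 in clone 1 (adjusted p = 8.2e-08) and by 0.46 ± 0.04 in HMC-1.1 (adjusted p = 9.5e-08). SMAD2 passed the threshold in neither, with 0.06 ± 0.03 (adjusted p = 0.11) and -0.02 ± 0.03 (adjusted p = 0.62). SMAD7 was lower in HMC-1.1 than in HMC-1.2, at -0.27 ± 0.07 (adjusted p = 0.002). In clone 1 against HMC-1.2, SMAD7 did not pass the threshold, with 0.09 ± 0.06 (adjusted p = 0.23). TCF4 and PIK3C3 passed it in none of the 3 comparisons without clone 2, with log2 fold changes between -0.05 and 0.03 for TCF4 and between -0.10 and 0.08 for PIK3C3.

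**Figure D4:**
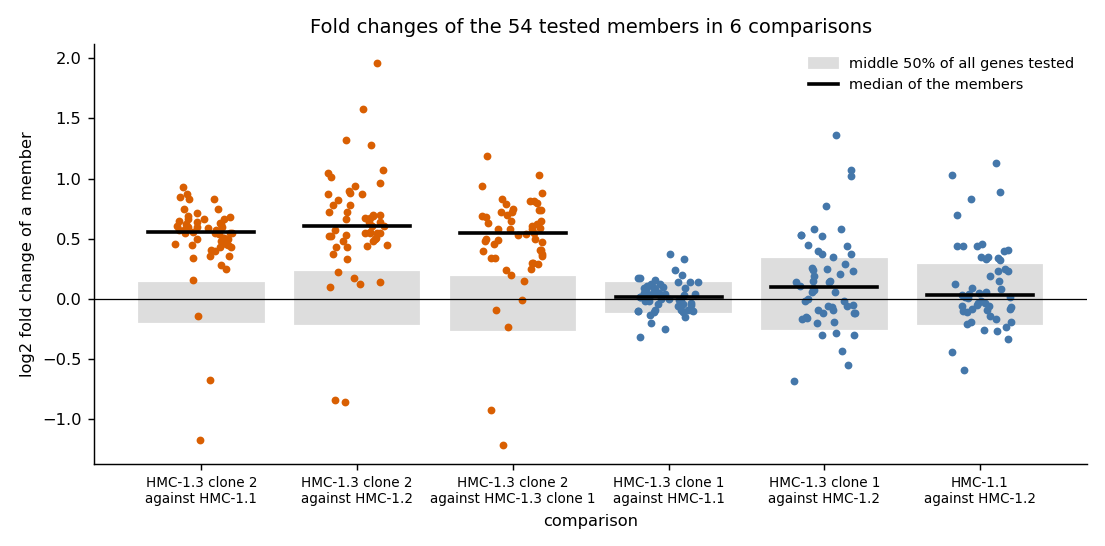
Log2 fold change of each of the 54 tested members (vertical axis) in 6 comparisons (horizontal axis), with those of clone 2 in orange and those without it in blue. The bar is the median of the members and the grey box holds the middle 50% of all genes tested, and the bars stand at 0.56, 0.61 and 0.55 with clone 2 and at 0.02, 0.10 and 0.04 without it.

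The other genes of chromosome 18 set the members in their place. Between RBBP8 and PARD6G, 97 further genes were tested. Their median mean shift in clone 2 was 0.55, and 53 lay above all other libraries, beside 8.52% of all genes. They include BCL2, with 0.49 ± 0.05, 0.35 ± 0.05 and 0.62 ± 0.05 against HMC-1.1, HMC-1.2 and clone 1, and PMAIP1, which encodes the pro-apoptotic NOXA, with 0.08 ± 0.04, 0.69 ± 0.04 and 0.12 ± 0.04. The extremes of these 97 were the long non-coding RP11-169F17.1, at 16.8 ± 1.1 CPM in clone 2 and at most 0.341 CPM on average elsewhere, and RAX, an eye homeobox gene at a mean of 0.455 CPM. The 6 genes tested on 18q before RBBP8 had a median of 0.6, from 0.49 in the Notch ligase MIB1 to 1.68 in GATA6, which was at only 0.221 CPM.

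The short arm went the opposite way. On 18p, 73 genes were tested with a median mean shift of -1 in clone 2. All clone 2 libraries lay below the other 9 in 50 of them and above in 0, beside 7.87% and 8.52% of all genes. The counts called in edgeR's test against HMC-1.1 were 57 lower and 1 higher, beside 17.5% and 18.5% of all genes. The 18p gene with the highest mean shift was EMILIN2, an extracellular matrix gene, at 0.24. This mean rests on HMC-1.2, against which clone 2 was at 1.74 ± 0.05. Against HMC-1.1 and clone 1, EMILIN2 was lower in clone 2, at -0.48 ± 0.04 and -0.55 ± 0.04. The lowest 18p gene was the pseudogene CTD-2594A10.4, which had 0 CPM in clone 2 and at most 0.865 on average elsewhere. The medians of 18p in the comparisons without clone 2 were 0.05, -0.02 and -0.09. The medians of the 22 other chromosomes with at least 50 tested genes, X included, ran from -0.04 to 0.05 in clone 2. Only RNA was measured in these libraries, and the number of copies of either arm was not tested.

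The partners of the members that are encoded on other chromosomes had no common direction in clone 2. Of 67 partner genes, 66 were tested, with a median mean shift of 0. In clone 2, 3 lay above and 2 below all other libraries, beside 8.52% and 7.87% of all genes. In edgeR's test 16 were called higher and 10 lower against HMC-1.1, beside 18.5% and 17.5% of all genes. Against HMC-1.2 the counts were 8 and 18, beside 24.7% and 23.8%, and against clone 1 they were 26 and 16, beside 24.7% and 25.5%. Of the called partners, 0, 3 and 3 changed by more than 1.5-fold. The share of all genes past this fold was not counted in these comparisons, so these counts have no background. SMAD1, which is among them against both HMC-1.2 and clone 1, was at a mean of only 0.21 CPM. Most partners named below were chosen by their difference from HMC-1.1. Many of these did not pass the threshold or lay on the other side against HMC-1.2.

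Among those called in the same direction in all 3 comparisons were PIK3R4, HAUS2 and CARD9. PIK3R4, of the class III PI3 kinase complex of PIK3C3, was higher in clone 2 by 0.24 ± 0.04 against HMC-1.1 (adjusted p = 0.00013), 0.13 ± 0.04 against HMC-1.2 (adjusted p = 0.014) and 0.47 ± 0.04 against clone 1 (adjusted p = 3.6e-08). HAUS2, of the augmin complex of HAUS1, was higher by 0.23 ± 0.04 (adjusted p = 0.00039), 0.30 ± 0.04 (adjusted p = 1.7e-05) and 0.18 ± 0.04 (adjusted p = 0.002). CARD9, an adaptor that acts with MALT1, was lower at -0.26 ± 0.05 (adjusted p = 0.00051), -0.35 ± 0.05 (adjusted p = 1.5e-05) and -0.40 ± 0.05 (adjusted p = 3.1e-06). BCL10, which joins such adaptors to MALT1, was at -0.05 ± 0.06 (adjusted p = 0.52), -0.05 ± 0.06 (adjusted p = 0.56) and 0.06 ± 0.06 (adjusted p = 0.48). MCFD2, the partner of LMAN1, was lower at -0.14, -0.08 and -0.37 (adjusted p = 0.0023, 0.041 and 4e-08).

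Other partners differed from HMC-1.1 and clone 1 but did not pass the threshold against HMC-1.2. ATG14 of the PIK3C3 complex was higher than in HMC-1.1 by 0.36 ± 0.08 (adjusted p = 0.0023) and stood at 0.06 ± 0.08 against HMC-1.2 (adjusted p = 0.59). In the INO80 complex, ACTR5 was higher than in HMC-1.1 by 0.35 ± 0.07 (adjusted p = 0.00097) and ACTR8 by 0.25 ± 0.04 (adjusted p = 0.00013), but against HMC-1.2 they stood at 0.06 ± 0.07 (adjusted p = 0.49) and 0.00 ± 0.04 (adjusted p = 0.97). HAUS4 was at -0.34 ± 0.04 against HMC-1.1 (adjusted p = 1.5e-05) and at -0.03 ± 0.05 against HMC-1.2 (adjusted p = 0.6). In the TIM23 complex of TIMM21, TIMM17A was at 0.33 ± 0.04 (adjusted p = 1.1e-05) and TIMM44 at -0.25 ± 0.03 (adjusted p = 3e-05) against HMC-1.1, and at -0.07 ± 0.04 (adjusted p = 0.17) and 0.08 ± 0.04 (adjusted p = 0.06) against HMC-1.2. The inhibitory SMAD6 was at -0.39 ± 0.08 (adjusted p = 0.0014) and -0.16 ± 0.09 (adjusted p = 0.14), respectively.

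A further set varied with the line compared. JUP, which links desmosomal cadherins to the cytoskeleton, was lower than in HMC-1.1 at -0.48 ± 0.03 (adjusted p = 2.6e-09) and than in clone 1 at -0.50 ± 0.03 (adjusted p = 9.6e-10), but higher than in HMC-1.2 by 0.50 ± 0.03 (adjusted p = 6.5e-10). The receptor TGFBR1 was at 0.02 ± 0.04 against HMC-1.1 (adjusted p = 0.8), lower than in HMC-1.2 at -0.29 ± 0.04 (adjusted p = 1.7e-05) and higher than in clone 1 by 0.23 ± 0.04 (adjusted p = 0.00016). TGFBR2 was at 0.05 ± 0.06 (adjusted p = 0.52), -0.19 ± 0.06 (adjusted p = 0.0096) and -0.07 ± 0.05 (adjusted p = 0.31) in the same order. Among partners that differed by less than 0.2 log2 units from HMC-1.1, PRPF8 of the U5 snRNP was at 0.12 against HMC-1.1 and -0.15 against HMC-1.2 (adjusted p = 0.042 and 0.0098), VTA1 of the VPS4B pathway at 0.18 and -0.09 (adjusted p = 0.00028 and 0.029), and MRE11, which acts with RBBP8, at -0.15 and 0.13 (adjusted p = 0.013 and 0.019). Unlike the partners of this set, TIMM17B, named after its value was seen, was lower in clone 2 than in each of the other lines. It was at -0.17 against HMC-1.1 (adjusted p = 0.038), -0.33 against HMC-1.2 (adjusted p = 0.00035) and -0.18 against clone 1 (adjusted p = 0.027). WDR5, DPY30, ELP4, VPS4A, EFTUD2 and TRAPPC11 were called against HMC-1.1 at this size but not against HMC-1.2. There they stood at 0.00, -0.03, 0.07, 0.05, -0.03 and -0.02, respectively. None of the 5 BAF partners of SS18 was called against HMC-1.1.

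**Figure D5:**
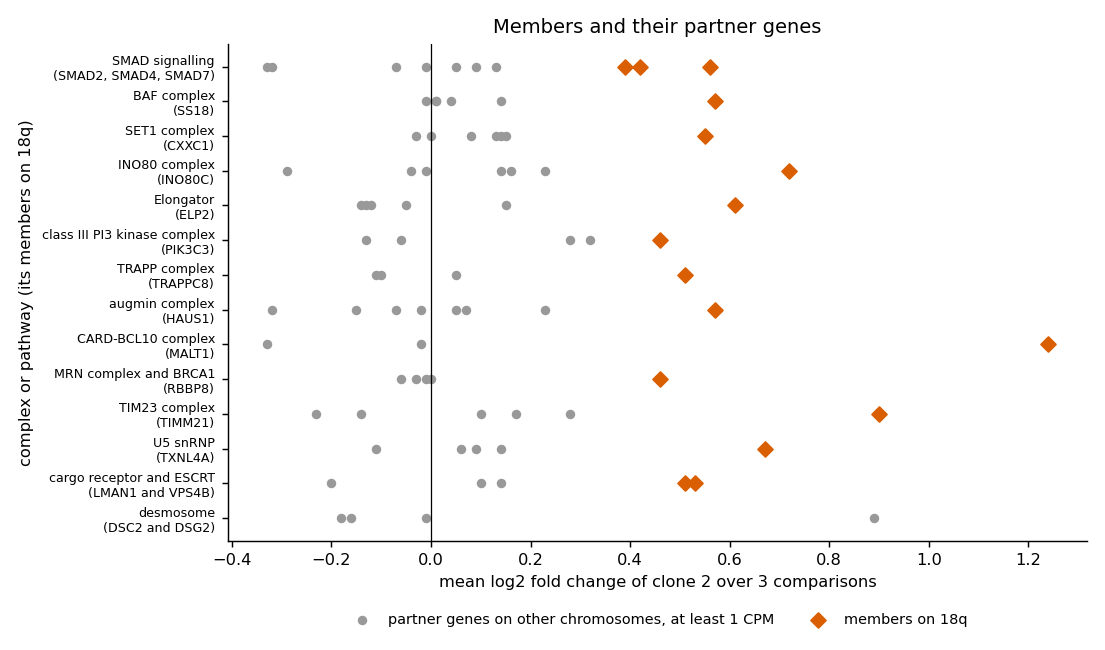
Mean log2 fold change of HMC-1.3 clone 2 over its 3 comparisons (horizontal axis) for members on 18q (orange diamonds) and their partner genes with at least 1 CPM on other chromosomes (grey points), by complex or pathway (vertical axis). The partners scatter around 0, with the desmosome gene PKP2 farthest from it at 0.89. PKP2 was at 2.26 against HMC-1.2, but at 0.24 against HMC-1.1 and 0.18 against clone 1. The members drawn, which are the tested ones with listed partners, stand between 0.39 (SMAD7) and 1.24 (MALT1). PSTPIP2, ZNF397 and ACAA2, the members below 0, have no listed partners and are not drawn.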

How the data were processed

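RNA of 12 HMC-1 cultures was captured with oligo-dT and sequenced from stranded libraries. According to the submitters' processing notes, the authors used the hg38 build, cutadapt 2.10 for trimming, STAR 2.5.3 for alignment, Picard, RSEM 1.3.0 and DESeq2. The deposited gene table holds RSEM expected counts, of which 7.39% were not whole numbers, and a further deposited table holds FPKM. How the counting used strand is not given in the sources used here. The members and gene lists were chosen with earlier results of these data known.

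Expected counts were rounded. Of 58381 genes, 15944 passed edgeR's filterByExpr. One model over the 4 groups was fitted with edgeR 4.0.16 (TMM factors 0.9739 to 1.024, glmQLFit and glmQLFTest), with Benjamini-Hochberg adjustment over all genes tested, a threshold of 0.05 and common biological coefficient of variation of 0.0442. The study's DESeq2 served as an alternative, since edgeR's quasi-likelihood test is the one used for counts here. CPM use TMM-scaled library sizes. Total counts per library ran from 29225900 to 43181402, and counts of few reads cover counting error only. Libraries of 1 group differed by 2.92 to 8.2 times sampling noise (chi-square per degree of freedom), so none was counted as a duplicate. The labels mark 3 libraries as resent (HMC-1.2 replicate 1, clone 1 replicate 3 and clone 2 replicate 1). Correlations of same-numbered deviations ran from 0.14 to 0.23 for replicate 1, -0.24 to 0.015 for replicate 2 and -0.15 to 0.45 for replicate 3. The main fit used no pairing by replicate number, and these values cannot show that same-numbered libraries shared no batch. A replicate block was fitted as an alternative.

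The shift of clone 2 is the mean of its 3 log2 fold changes, against HMC-1.1, HMC-1.2 and clone 1. Members described in every library were, by rule, the largest and smallest mean shift of each role group, each escapee with at least 1 CPM, and SMAD2, SMAD4, SMAD7, MALT1, PIK3C3 and TCF4. CXXC1 and GALNT1 were added after their values were seen. Tests were given for the 3 largest rises and falls over 1.5-fold without clone 2, and for up to 2 partners per list with the largest difference from HMC-1.1. The partners BICRA and MRE11 were matched by older symbols. Some items are not reported here. Positions come from Gencode 44 on GRCh38 by gene ID, and promoters from RefSeq. Of the members, 47 overlap another annotated gene, 33 of them one on the same strand and 6 a protein-coding one on the same strand, where reads may be split. Software also included R 4.3.3, DESeq2 1.42.0, limma 3.58.1, Python 3.11.15, pandas 2.3.3 and matplotlib 3.10.9. The fitting steps were tested on simulated data.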

Additional observations from a re-analysis of the deposited data

Results flagged for a closer look

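In 18 of the 54 tested members, all libraries of the 2 HMC-1.3 clones lay on opposite sides of all HMC-1.2 libraries. This order was found in 5.83% of all genes. The members were chosen by the shift of clone 2, which lay above HMC-1.2 in 52 of the 54, so this count carries no support. In 17 of the 18 members clone 2 was above HMC-1.2 and clone 1 below it. The difference between both clones' log2 fold changes from HMC-1.2 was 1.19 in TIMM21, 1.03 in MAPRE2, 0.88 in WDR7, 0.83 in SLC39A6, 0.81 in CXXC1, 0.80 in INO80C, 0.79 in TPGS2, 0.75 in RTTN and 0.74 in ZNF407. It was 0.72 in TXNL4A, 0.65 in LMAN1, 0.63 in ME2, 0.62 in VPS4B, 0.54 in MBD1, 0.49 in ZNF24, 0.29 in GALNT1 and 0.15 in MEX3C. PSTPIP2 was the reverse case at -1.21, with clone 2 below and clone 1 above HMC-1.2. These differences were not tested, since they belong to the comparisons that chose the members. The part of clone 1 in them was small in some genes. Clone 1 against HMC-1.2 was at -0.05 ± 0.04 in MEX3C (adjusted p = 0.23) and -0.07 ± 0.04 in ZNF24 (adjusted p = 0.13). Neither passed the threshold in edgeR's test.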

How the results depend on the processing

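In the clone 2 comparisons, the fold changes of the 54 members kept their sign except those of OSBPL1A (-0.10 to 0.03) and ZNF521 (-0.03 to 0.02) against clone 1. In the comparisons of HMC-1.2 with clone 1 and HMC-1.1, those of OSBPL1A, ZNF521, MALT1 and CXXC1 kept theirs. The spread of single fold changes of other members without clone 2 is not given here. The alternatives were another tool (DESeq2), other filters, only the groups compared, the replicate block, a term for resent libraries, limma on FPKM and each library left out. With limma on log2(FPKM + 1), the median of the members in clone 2 was 0.52 against HMC-1.1 and 0.49 against clone 1. The counts of clone 1 against HMC-1.1 were the least stable. They were 6 higher and 3 lower with only these groups in the fit, 5 higher with the term for resent libraries, and 4 higher and 0 lower, with a median of 0.04, with limma on FPKM at either pseudocount (1 or 0.1). Each library left out in turn gave 4 to 10 higher, 2 to 6 lower and a median of 0.00 to 0.03. The count of higher or lower members moved by more than 1.5 times without HMC-1.1 replicate 1 (3 lower), replicate 2 (7 higher, 2 lower) or replicate 3 (4 and 3), clone 1 replicate 1 (5 and 3) or replicate 2 (6 and 2), or clone 2 replicate 1 (3 lower). Members lower in clone 1 than in HMC-1.2 numbered 9 with limma on FPKM, and those lower in HMC-1.1 than in HMC-1.2 numbered 7 and 6 with a pseudocount of 1 and 0.1. The median of clone 1 against HMC-1.2 was 0.08 to 0.10 with each library left out. The cause of these moves was not tested. With the replicate block, members called higher and lower without clone 2 numbered 11 and 5 in clone 1 against HMC-1.1, 26 and 15 in clone 1 against HMC-1.2, and 22 and 12 between HMC-1.1 and HMC-1.2, which changed no statement. The number of members with clone 2 above all others was 46 to 49 with FPKM or without TMM factors, and 49 with each library left out, an alternative chosen after seeing the data. The shares of all genes in this order with FPKM or without TMM factors are not given here. Wells of 1 clone cannot show how other edited clones behave, and members under the filter on low counts could not be compared at this depth.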
